A study of Homo sapiens with 42 samples.

Results

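The HOXB genes HOXB2 to HOXB9 were followed in RPMI-8226 cells, a human line established from a plasma cell cancer, multiple myeloma, on Affymetrix U133 Plus 2 expression arrays. All probe sets whose annotation gives one of these 8 genes as its only symbol were taken. They numbered 15, of 54675 probe sets on the array, and the 8 genes stood among 19775 gene symbols. One line was stably infected with a hairpin against BMI1 and the other with a control hairpin, both inducible by doxycycline, given at 100 ng/ml. There were 14 groups of 3 arrays: the BMI1-shRNA line dosed for 24, 32 or 48 h and undosed at 0, 24, 32 and 48 h, and the control-shRNA line in the same 7 states. Both lines share the RPMI-8226 background, and whether a line came from 1 clone or a pool of infected cells is not given in the sources used here. The 0 h arrays titled as BMI1-shRNA without doxycycline carry conflicting labels, since another label gives doxycycline and a further one names the control hairpin. They were grouped by title and enter the 0 h values and the comparisons of 48 h with 0 h. All 42 arrays share 1 variance per probe set in the model, so these arrays also enter every standard error and p-value. They count as well in the filter, the counts of arrays and the correlations over groups.

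HOX genes encode homeodomain transcription factors that set position along the body axis, and they lie in clusters whose gene order follows the order of expression in the embryo. Polycomb complexes keep silent HOX genes silent: PRC2 methylates histone H3, and PRC1, of which BMI1 is a subunit, ubiquitinates histone H2A and compacts chromatin. In blood, HOXB genes are best known from stem and progenitor cells, and trithorax proteins such as KMT2A and MEN1 oppose Polycomb at HOX promoters.

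The array check of the hairpin came first. The BMI1 probe set, annotated also to the readthrough transcript COMMD3-BMI1, averaged 177.5 ± 32.0 with doxycycline and 975.0 ± 112 without it in the BMI1-shRNA line (SD, n = 9 each; 24 to 48 h). The log2 difference was -2.43 ± 0.06 (SE; limma adjusted p = 3.04e-28). In the control-shRNA line BMI1 averaged 1243 ± 69.8 with doxycycline and 1214 ± 54.2 without it, a log2 difference of 0.03 ± 0.06. On the 0 h arrays titled BMI1-shRNA, whose labels conflict, BMI1 read 1009.3 to 1069.4, values that go with the title. Undosed BMI1-shRNA arrays at 24 to 48 h read 758.3 to 1128.8. Dosed BMI1-shRNA arrays read 139.8 to 234, and all control-shRNA arrays 1117.2 to 1363.7. Of the 10 plasma cell markers listed, 9 read at or above the array median on all 42 arrays, SLAMF7 being the exception, whereas none of 7 T cell and 7 monocyte markers did. The bar was also met by 4 of 6 epithelial markers, by HBB of the erythroid list and by COL1A1 of the fibroblast list. It does not by itself tell cell types apart. Correlations between arrays across probe sets ran from 0.968 to 0.981 within a group and from 0.946 to 0.965 between the lines.

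Values are MAS5 signals, linear intensities that each array's software scaled to a common mean, and signals of different probe sets are not on one scale. Without detection calls, a group was taken as near background where all 3 arrays read below their own median, which lay between 16 and 22.5, as above background where all 3 read at or over it, and as mixed otherwise. Log2 differences were taken on log2(signal + 5.4), which understates changes of dim probe sets, and carry standard errors from limma. A difference was called where its p, adjusted by Benjamini-Hochberg over the 35235 probe sets tested, was under 0.05, and the probe sets tested were those at or above the array median on at least 3 arrays. Nothing in the labels says that replicates were separate cultures, and p-values therefore reflect the spread between arrays alone, which may be technical. In bulk RNA, fewer cells that express a gene and less RNA per cell cannot be told apart. Of the 15 HOXB probe sets, 9 have names ending in _s_at or _x_at, which mark probes shared between transcripts or prone to cross-hybridize, so reads from related transcripts cannot be separated there.

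HOXB7 and HOXB4 were the HOXB genes whose brightest probe set read at or above the array median on all 42 arrays. The brightest probe sets of HOXB9, HOXB5, HOXB3 and HOXB6 did so on 40, 35, 34 and 32 arrays, and that of HOXB2 on 8. HOXB8, a factor that blocks differentiation of myeloid progenitors when overexpressed, stayed at background: its 2 probe sets read at or above the median on 1 and 0 arrays. The second HOXB6 probe set (205365_at) reached the median on 0 arrays and the second HOXB3 probe set (208414_s_at) on 2. These 4 probe sets did not pass the filter on dim values, which left 11 probe sets of 7 genes in the tests. Against a higher bar, the array's 75th percentile (110 to 123.8), HOXB7 alone reached it, on all 21 arrays of the BMI1-shRNA line and on none of the control-shRNA line. Among 31 genes of unrelated tissues, the 90th percentile of signal lay between 18.3 and 41.9 over the arrays, a range that holds the dimmer HOXB signals. The brightest probe set of HOXB4 reached that level on all 21 arrays of each line. HOXB7, HOXB6 and HOXB9 reached it on 21, 21 and 20 BMI1-shRNA arrays and on 16, 5 and 15 control-shRNA arrays. HOXB5 and HOXB3 reached it on 15 and 11 BMI1-shRNA arrays and on 12 and 14 control-shRNA arrays. HOXB2 did so on 1 and 0, and HOXB8 on 0 and 0.

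**Figure D1:**
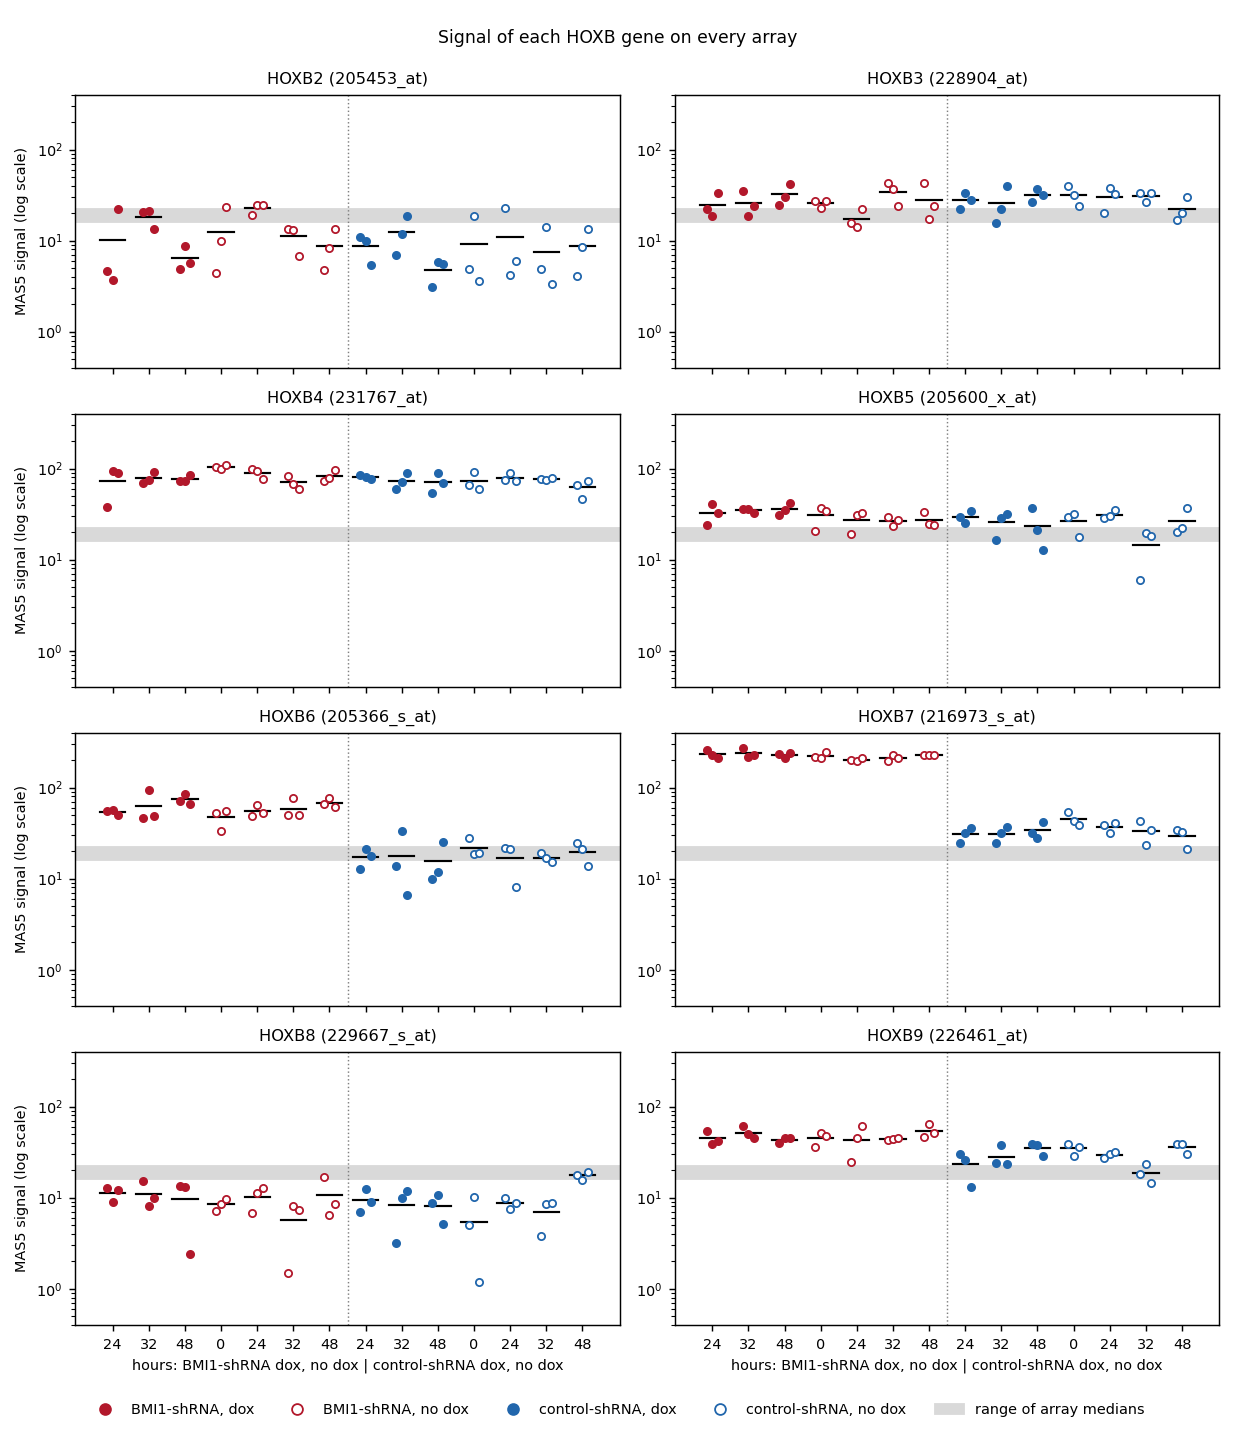
MAS5 signal (log axis) of the brightest probe set of each HOXB gene on every array, by line, doxycycline and time; points are arrays, black bars group means and the grey band the range of array medians (16 to 22.5). HOXB7 and HOXB6 are higher in the BMI1-shRNA line than in the control-shRNA line with no overlap, HOXB4 overlaps, and HOXB8 and most arrays of HOXB2 lie in or below the band, the highest HOXB2 array reading 24.8.

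The lines were compared with doxycycline on, as the mean of 24, 32 and 48 h. HOXB7, HOXB6 and HOXB9, which lie together in the cluster with HOXB8 between HOXB7 and HOXB9, were higher in the BMI1-shRNA line, HOXB7 by 6.45-fold, HOXB6 by 3.21-fold and HOXB9 by 1.56-fold on the log2(signal + 5.4) scale. No HOXB probe set was called lower. Called higher were 6 of the 11 HOXB probe sets, where 20.2% of all probe sets tested were called higher and 17.9% lower. The median log2 difference was 0.56 over the 11 probe sets and 0.03 over all probe sets tested. The genes were chosen for the difference of the same lines without doxycycline, so these counts and the median describe them and are not independent evidence. The same holds for the p-values of this comparison given below for single HOXB genes. This comparison holds the difference between the lines, the effect of the hairpins and that of doxycycline together. The ratio of GAPDH 3-prime to 5-prime signal, a sign of RNA quality, was 0.935 ± 0.0251 in the BMI1-shRNA line and 1.03 ± 0.0401 in the control-shRNA line (SD, n = 21 each), and its part in the result was not tested.

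HOXB7, a homeodomain factor overexpressed in several cancers, gave the widest difference among the HOXB genes. With doxycycline its brightest probe set (216973_s_at) read 256.5, 230.5 and 209.5 at 24 h, 271.3, 217.6 and 226.1 at 32 h and 232.9, 213.5 and 242.3 at 48 h in the BMI1-shRNA line. The control-shRNA line with doxycycline gave 24.4, 31.5 and 35.9 at 24 h, 24.7, 31.7 and 37 at 32 h and 31.9, 27.8 and 42.3 at 48 h. The lowest of the 9 BMI1-shRNA arrays, 209.5, lay far above the highest of the 9 control-shRNA arrays, 42.3. The log2 difference was 2.69 ± 0.10 (SE; limma adjusted p = 7.78e-24). Both other HOXB7 probe sets showed the same direction, at 2.98 ± 0.09 (204779_s_at; adjusted p = 1.93e-25) and 1.95 ± 0.28 (204778_x_at; adjusted p = 2.88e-07), with groups that did not overlap. Each of the 3 was called higher at 24, 32 and 48 h taken singly, times at which 10.8%, 12.1% and 11.7% of all probe sets tested were. All 3 have names ending in _s_at or _x_at.

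Without doxycycline the HOXB7 probe set 216973_s_at read 215.9, 209.4 and 244.1 at 0 h, 200.7, 195.9 and 209.9 at 24 h, 197, 225.9 and 212.2 at 32 h and 228.3, 229.3 and 225 at 48 h in the BMI1-shRNA line. Values in the control-shRNA line were 54.4, 43 and 38.5 at 0 h, 39.2, 31.5 and 40.5 at 24 h, 43.4, 23.4 and 34 at 32 h and 33.8, 32.7 and 21.2 at 48 h. Over the 14 groups, means in the BMI1-shRNA line ran from 202 to 238 and those in the control-shRNA line from 29.2 to 45.3. Within a line, groups next to each other in this order overlapped in their arrays, and between the lines nothing lay from 54.4 to 195.9.

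HOXB6, which acts in erythroid and myeloid progenitors, followed HOXB7. Its probe set 205366_s_at gave 55.1, 56 and 49.8 at 24 h, 46.2, 94.8 and 48.4 at 32 h and 71.2, 86 and 65.9 at 48 h in the BMI1-shRNA line with doxycycline. The dosed control-shRNA line gave 12.9, 21.3 and 17.7 at 24 h, 13.6, 33.3 and 6.6 at 32 h and 9.8, 11.8 and 25.2 at 48 h. These 9 arrays against 9 did not overlap, and the log2 difference was 1.68 ± 0.18 (SE; limma adjusted p = 5.54e-10), called at each time. In the dosed control-shRNA line 4 of the 9 arrays reached the array median, so the size of the difference depends on the pseudocount: it was 1.95 with a pseudocount of 1 and 1.22 with the median of all values. The control-shRNA line was near the array median throughout, with 11 of its 21 arrays at or above it, against 21 of 21 in the BMI1-shRNA line.

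Undosed, HOXB6 read 52.2, 33.7 and 55.4 at 0 h, 48.3, 64.1 and 53.2 at 24 h, 49.8, 76.2 and 50.5 at 32 h and 66, 76 and 61.6 at 48 h in the BMI1-shRNA line. The undosed control-shRNA line had 27.7, 18.7 and 19 at 0 h, 21.6, 21.4 and 8 at 24 h, 18.9, 17 and 15.2 at 32 h and 24.4, 21.2 and 13.7 at 48 h. Over all arrays the lowest BMI1-shRNA value, 33.7, and the highest control-shRNA value, 33.3, nearly met. The other HOXB6 probe set, 205365_at, stayed below the array median in both lines, between 1.4 and 17.2 in the BMI1-shRNA line and between 0.7 and 16.2 in the control-shRNA line.

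HOXB9, which patterns the thoracic skeleton in mouse, differed by less. With doxycycline its probe set 226461_at read 54.1, 39.3 and 42.3 at 24 h, 61, 49.7 and 44.8 at 32 h and 39.8, 45.3 and 45.2 at 48 h in the BMI1-shRNA line. Dosed control-shRNA arrays read 30.2, 26 and 13.2 at 24 h, 23.9, 37.4 and 23.3 at 32 h and 38.9, 37.7 and 29 at 48 h. The lowest BMI1-shRNA array, 39.3, lay just above the highest control-shRNA array, 38.9, and the log2 difference was 0.64 ± 0.13 (SE; limma adjusted p = 0.000153). At single times it was called at 24 and 32 h and not at 48 h. The second HOXB9 probe set (216417_x_at) differed by 0.56 ± 0.16 (adjusted p = 0.0047), with overlapping arrays. Of 16 tested genes of unrelated tissues 2 were also called higher and 0 lower, SYT1 at 0.63 ± 0.23 and MBP at 0.51 ± 0.08. These values are near the size of the HOXB9 difference, and 20.2% of all probe sets tested were called higher. Counted over the cluster, 5 of the 11 probe sets had dosed arrays higher in the BMI1-shRNA line with no overlap, where 6.83% of all probe sets tested did.

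Without doxycycline HOXB9 gave 35.7, 50.9 and 48.1 at 0 h, 24.5, 44.8 and 60.9 at 24 h, 42.7, 43.9 and 45.3 at 32 h and 46.7, 64.1 and 51.6 at 48 h in the BMI1-shRNA line. In control-shRNA cells it gave 39.2, 28.8 and 36.4 at 0 h, 27.3, 30.5 and 31.4 at 24 h, 18, 23.2 and 14.6 at 32 h and 38.8, 38.4 and 29.8 at 48 h. The undosed lines overlapped, with the 32 h control-shRNA arrays the lowest group of the 14.

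HOXB4, a factor known for expanding haematopoietic stem cells, was well above background in both lines and did not pass the test of a line difference. Its probe set 231767_at read 37.4, 94.5 and 88.5 at 24 h, 69.2, 74.3 and 91.2 at 32 h and 72.8, 73.5 and 84.7 at 48 h in the dosed BMI1-shRNA line. The dosed control-shRNA line read 85.6, 81.3 and 75.9 at 24 h, 60.1, 71.3 and 90.1 at 32 h and 54, 89.8 and 68.9 at 48 h. The groups overlapped, and the 95% interval of the log2 difference ran from -0.25 to 0.25. Undosed values were 103.3, 99.7 and 110.7 at 0 h, 99.4, 93.1 and 76.9 at 24 h, 83.4, 67.9 and 59.7 at 32 h and 73.1, 79.5 and 95.3 at 48 h in the BMI1-shRNA line. For the control-shRNA line they were 66, 91.8 and 59.9 at 0 h, 75.7, 88.3 and 73.3 at 24 h, 76.8, 74.6 and 78.8 at 32 h and 66.7, 46.6 and 72.8 at 48 h. The 3 highest HOXB4 values of all 42 arrays were the 0 h arrays titled BMI1-shRNA, whose labels conflict.

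HOXB5, which marks long-term haematopoietic stem cells in mouse, lay close to the array median and did not pass. Its probe set 205600_x_at gave 23.8, 40.5 and 32.2 at 24 h, 35.8, 35.9 and 32.5 at 32 h and 31.2, 35.2 and 41.9 at 48 h in the dosed BMI1-shRNA line. It gave 29.4, 25.2 and 34.1 at 24 h, 16.6, 28.8 and 31.7 at 32 h and 36.9, 20.9 and 12.7 at 48 h in the dosed control-shRNA line. Arrays overlapped, the log2 difference was 0.36 ± 0.17 (SE; limma adjusted p = 0.087), and it passed, at 0.47 with an adjusted p of 0.0226, when the dosed control-shRNA array numbered 1 at 48 h was left out. Undosed BMI1-shRNA arrays read 20.8, 36.6 and 34.4 at 0 h, 19.3, 30.8 and 32.5 at 24 h, 29.4, 23.4 and 27.2 at 32 h and 33.7, 24.5 and 24.2 at 48 h. Undosed control-shRNA arrays read 29.4, 31.7 and 17.7 at 0 h, 28.4, 29.8 and 34.8 at 24 h, 6, 19.5 and 18.4 at 32 h and 20, 22.2 and 37.1 at 48 h. The second HOXB5 probe set (205601_s_at) had a log2 difference of -0.04 ± 0.23 with doxycycline and 0.66 ± 0.23 without it, so the 2 probe sets of this gene did not move together.

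HOXB3, active in haematopoietic progenitors, overlapped between the lines. With doxycycline its probe set 228904_at read 22.5, 18.4 and 33.5 at 24 h, 35, 18.4 and 24.1 at 32 h and 24.3, 30.2 and 42.2 at 48 h in BMI1-shRNA cells. Control-shRNA cells with doxycycline gave 22, 33 and 28 at 24 h, 15.8, 22 and 40 at 32 h and 26.3, 37.1 and 32 at 48 h. The groups overlapped, and the log2 difference of -0.04 ± 0.17 had a 95% interval from -0.38 to 0.30. Without doxycycline BMI1-shRNA cells gave 27.1, 22.9 and 27.3 at 0 h, 15.7, 14.2 and 22.4 at 24 h, 42.9, 36.9 and 23.7 at 32 h and 42.6, 17.4 and 23.8 at 48 h. Undosed control-shRNA cells gave 39.6, 31.4 and 24.2 at 0 h, 20.1, 37.9 and 32.4 at 24 h, 33.1, 26.5 and 33.6 at 32 h and 16.8, 20.3 and 30 at 48 h. HOXB3 thus read at or above the array median on 16 of 21 BMI1-shRNA arrays and 18 of 21 control-shRNA arrays.

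HOXB2, which patterns the hindbrain in mouse, was above background in 1 of the 14 groups, the undosed BMI1-shRNA arrays at 24 h. Its probe set 205453_at gave 4.6, 3.7 and 22 at 24 h, 20.6, 20.9 and 13.3 at 32 h and 4.9, 8.8 and 5.7 at 48 h in the BMI1-shRNA line with doxycycline, and 10.9, 9.9 and 5.4, 6.9, 11.8 and 18.6 and 3.1, 5.8 and 5.5 at the same times in the control-shRNA line. Undosed, it gave 4.4, 9.9 and 23.1 at 0 h, 19.2, 24.7 and 24.8 at 24 h, 13.5, 13.1 and 6.7 at 32 h and 4.8, 8.3 and 13.4 at 48 h in the BMI1-shRNA line, and 4.9, 18.7 and 3.6, 22.6, 4.2 and 5.9, 4.9, 14.2 and 3.3 and 4.1, 8.6 and 13.4 at those times in the control-shRNA line. Arrays of one group spread over several-fold, and the log2 line difference with doxycycline was 0.21 ± 0.26 (95% interval -0.31 to 0.73).

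Between the undosed lines, the difference for which these genes were chosen is given as a description. HOXB7 differed by 2.52 ± 0.10, 2.82 ± 0.09 and 1.24 ± 0.28 on the log2 scale over its probe sets 216973_s_at, 204779_s_at and 204778_x_at, HOXB6 by 1.52 ± 0.18, and HOXB9 by 0.66 ± 0.13 and 0.59 ± 0.16 (SE, 9 arrays a side). The remaining values were 0.47 for HOXB2, -0.10 for HOXB3, 0.15 for HOXB4, and 0.22 and 0.66 for HOXB5. In 3 of the 11 probe sets the undosed arrays of the BMI1-shRNA line were higher with no overlap, where 6.2% of all probe sets tested were, and 35.1% of all probe sets tested were called in either direction.

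**Figure D2:**
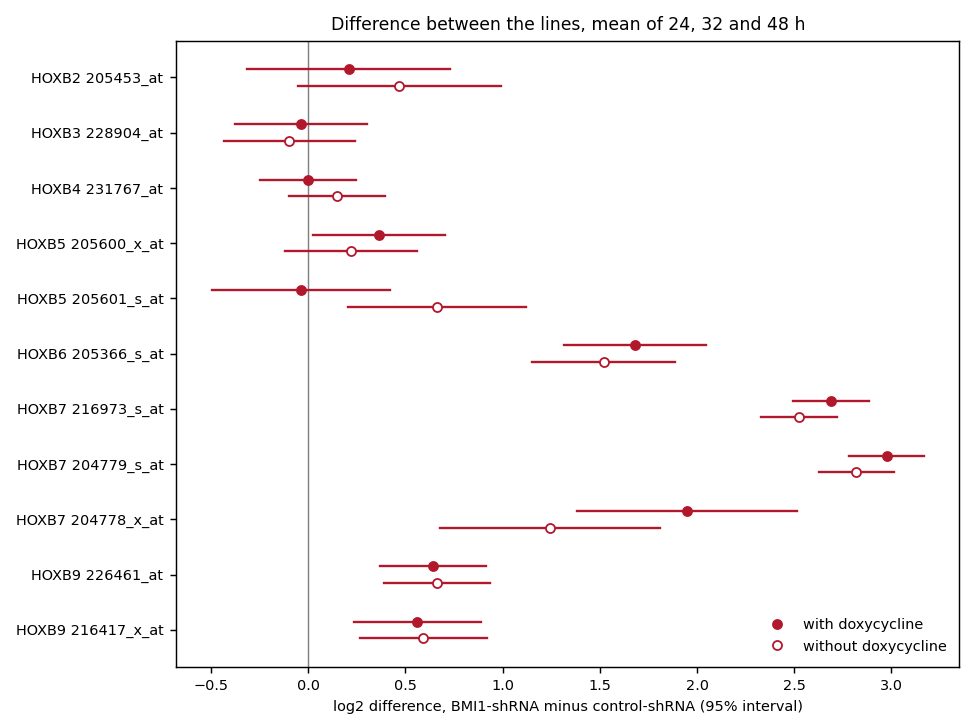
Log2 difference in signal between the BMI1-shRNA and control-shRNA lines for the 11 HOXB probe sets tested, with doxycycline (filled) and without it (open); lines are 95% intervals, 9 arrays a side. HOXB7 and HOXB6 stand between 1.24 and 2.98 in both states, and HOXB9 between 0.56 and 0.66.

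Doxycycline in the BMI1-shRNA line asked which HOXB genes changed when the BMI1 hairpin was induced. Of the 11 probe sets, 0 were called in limma, where 5.83% of all probe sets tested were, and 0 had an unadjusted p under 0.05. The smallest adjusted p was 0.421, and log2 differences ran from -0.25 to 0.29. HOXB7 averaged 233.4 ± 20.4 with doxycycline and 213.8 ± 13.8 without it (SD, n = 9 each). Its log2 difference was 0.12 ± 0.10, with a 95% interval from -0.07 to 0.32. HOXB6 averaged 63.7 ± 17.3 with doxycycline and 60.6 ± 10.9 without it, a difference of 0.05 ± 0.18 (95% interval -0.32 to 0.41). HOXB4 averaged 76.2 ± 17.2 with doxycycline and 80.9 ± 13.2 without it, a difference of -0.10 ± 0.12 (95% interval -0.35 to 0.15). HOXB9 differed by 0.01 ± 0.13 (95% interval -0.26 to 0.29). At 24, 32 and 48 h taken singly 0 of the 11 probe sets were called in limma, against 0.897%, 1.38% and 3.83% of all probe sets tested. The unadjusted p was under 0.05 for 1 of them at 24 h and for 0 at 32 and 48 h. Log2 differences at single times spread more widely than their mean. They ran from -1.05, for the dim HOXB2, to 0.39 at 24 h, from -0.36 to 0.53 at 32 h and from -0.42 to 0.34 at 48 h.

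In the control-shRNA line doxycycline gave 0 calls among the 11 HOXB probe sets in limma, where 0.071% of all probe sets tested were called, and 1 unadjusted p under 0.05. That was HOXB5 205601_s_at, which averaged 24.3 ± 8.06 with doxycycline and 14.9 ± 7.46 without it, a log2 difference of 0.61 ± 0.23 (adjusted p = 0.745). HOXB7 differed by -0.04 ± 0.10 (216973_s_at) and HOXB6 by -0.12 ± 0.18. The doxycycline effects of the lines were then set against each other. Again 0 of the 11 were called in limma, against 2.53% of all probe sets tested, and 1 had an unadjusted p under 0.05, HOXB5 205601_s_at at -0.70 ± 0.32 (adjusted p = 0.342). For HOXB7 216973_s_at the difference of the effects was 0.16 ± 0.14 (95% interval -0.11 to 0.44) and for HOXB6 0.16 ± 0.26 (95% interval -0.36 to 0.68). The same interaction value compares the line difference with doxycycline to that without it.

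**Figure D3:**
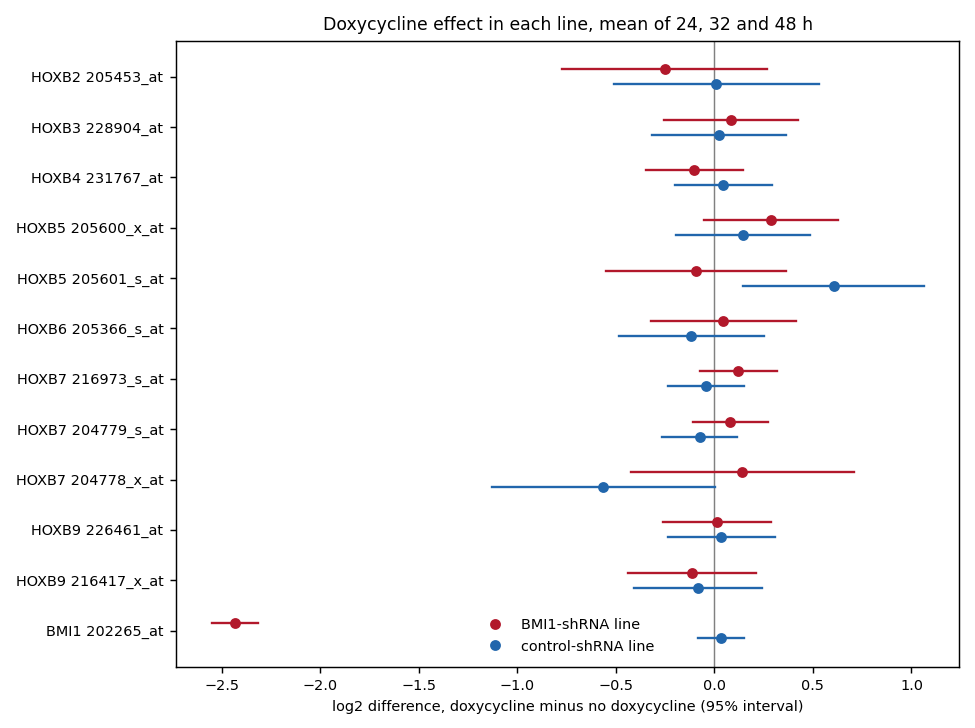
Log2 difference in signal between arrays with and without doxycycline in the BMI1-shRNA and control-shRNA lines, for the 11 HOXB probe sets and for BMI1; lines are 95% intervals, 9 arrays a side. BMI1 stands at -2.43 in the BMI1-shRNA line, whereas the HOXB values of that line lie between -0.25 and 0.29.

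Time in culture without doxycycline was read from 48 h against 0 h. In the BMI1-shRNA line 0 of the 11 HOXB probe sets were called in limma, where 2.53% of all probe sets tested were, and 0 had an unadjusted p under 0.05. In the control-shRNA line 1 of the 11 was called lower, where 1.59% were: HOXB7 216973_s_at, at 33.8, 32.7 and 21.2 at 48 h against 54.4, 43 and 38.5 at 0 h. These arrays did not overlap, and the log2 difference was -0.56 ± 0.17 (SE; limma adjusted p = 0.04996). The other HOXB7 probe sets gave -0.12 ± 0.16 and -0.29 ± 0.48 and were not called. The call was lost when any of 4 of the 6 arrays was left out: at 0 h those numbered 1 and 2 (adjusted p = 0.236 and 0.0998), and at 48 h those numbered 2 and 3 (adjusted p = 0.0576 and 0.292). It was also lost in 7 of 11 other settings, among them the replicate number as a block (adjusted p = 0.0508).

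The cluster's neighbours on chromosome 17, in the gene order of GRCh38.p14, were compared in the dosed arrays to see whether the line difference extended beyond the HOXB genes. Of 23 flanking genes 21 had a probe set and 14 were tested, and 3 were higher and 1 lower in the BMI1-shRNA line, where 20.2% of all probe sets tested were higher and 17.9% lower. The share of higher genes was thus near that over all probe sets. SKAP1, a T cell adaptor next to HOXB1, averaged 149.2 ± 18.0 in the BMI1-shRNA line and 78.1 ± 8.20 in the control-shRNA line with no overlap, a log2 difference of 0.89 ± 0.07 (SE; limma adjusted p = 2.75e-14). COPZ2, a coatomer subunit, differed by 0.33 ± 0.09, and CALCOCO2, a selective autophagy receptor, by -0.21 ± 0.05, which was -0.02 (adjusted p = 0.895) when its probe sets were averaged. ATP5MC1, an ATP synthase subunit, differed by 0.11 ± 0.04 and lost the call without any of 4 single arrays (limma adjusted p up to 0.0743). None of the 14 was called under doxycycline in either line, against 5.83% of all probe sets tested in the BMI1-shRNA line and 0.071% in the control-shRNA line. Within the cluster, HOXB1 at one end and HOXB13 at the other reached the array median on 0 arrays in their brightest probe sets. The other HOXB1 probe set reached it on 2 arrays of each line, at up to 25.4 in the BMI1-shRNA line and 23.4 in the control-shRNA line.

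**Figure D4:**
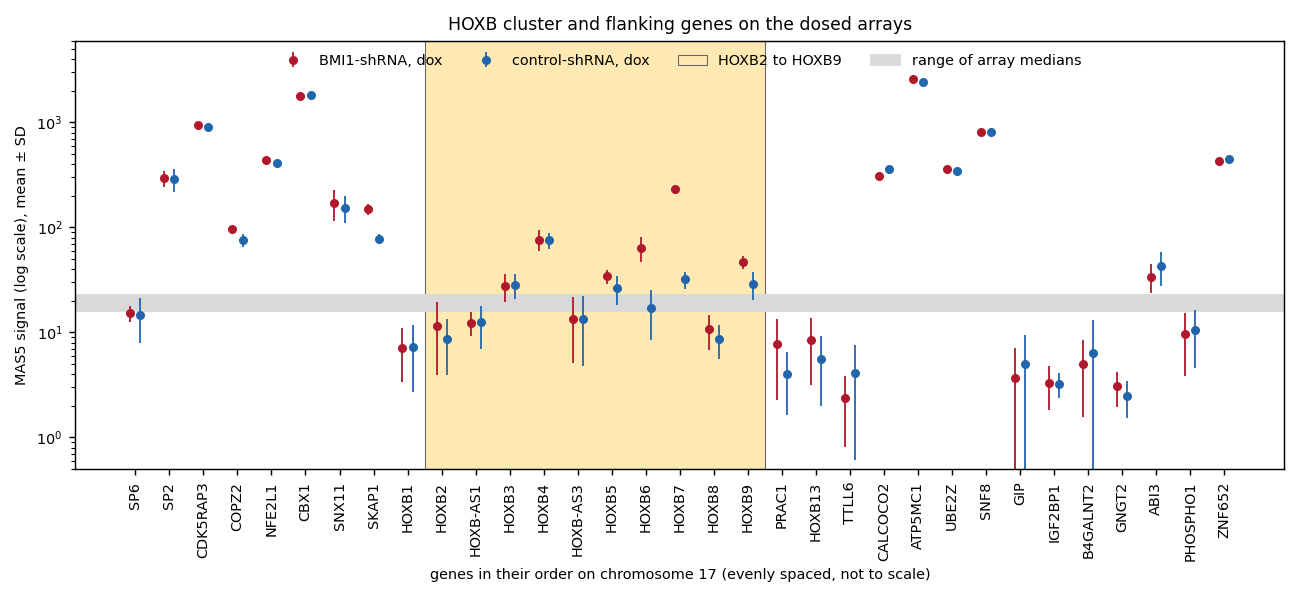
Mean MAS5 signal (log axis, ± SD over 9 arrays, lower bars cut at 0.5) in the dosed BMI1-shRNA and control-shRNA lines for HOXB2 to HOXB9 (shaded, with 2 antisense genes between them) and their neighbours, in gene order and evenly spaced. HOXB6, HOXB7, HOXB9, SKAP1, COPZ2 and ATP5MC1 were called higher and CALCOCO2 lower in the BMI1-shRNA line; heights of different genes are not on one scale.

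Most other HOX genes that could be read were dim. Of 12 HOXA-cluster genes listed, only 2 had a probe set with a single gene symbol, so that cluster was largely not measured here. HOXC4 reached the array median on 29 arrays, and HOXC11 and HOXD8 on 19 each. Such a probe set was present for 4 further HOXB-cluster, 2 HOXA-cluster, 10 HOXC-cluster and 8 HOXD-cluster genes. None of these genes read at or above the median on all 42 arrays, a bar that only HOXB7 and HOXB4 met among HOXB2 to HOXB9. In the dosed line comparison 1 of the 12 of them that were tested was called, HOXC6, at -0.56 ± 0.18 (limma adjusted p = 0.0115), a gene at or above the median on 0 arrays of the BMI1-shRNA line and 5 of the control-shRNA line, so that it passed the filter through the line where it was high. HOX proteins bind DNA with TALE cofactors, and of 8 tested 1 was higher (PBX2, 0.44 ± 0.11) and 1 lower (MEIS2, -0.19 ± 0.07). Over all probe sets tested 20.2% were higher and 17.9% lower, shares that neither the cofactors nor the HOX genes above exceeded. MEIS2 lost the call without any of 5 single arrays, with a limma adjusted p of up to 0.0778. In the control-shRNA line 1 of the 8 cofactors was higher (MEIS3, 1.48 ± 0.43) and 1 lower (PBX3, -0.56 ± 0.16) at 48 h against 0 h. Over all probe sets tested 1.59% were lower. The share that were higher is not given here, so the MEIS3 call cannot be set against it. MEIS3 and PBX3 lost the call without any of 5 and 4 of the 6 arrays (limma adjusted p up to 0.198 for MEIS3 and 0.147 for PBX3). Doxycycline gave 0 calls among the 8 cofactors in either line, against 5.83% of all probe sets tested in the BMI1-shRNA line and 0.071% in the control-shRNA line.

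Among 13 tested activators of HOX genes, 3 were higher and 3 lower in the dosed BMI1-shRNA line, near the 20.2% and 17.9% over all probe sets tested. MEN1 (0.37 ± 0.05) and ASH2L (0.36 ± 0.06), both subunits of histone methyltransferase complexes, were among the higher, and KMT2A (-0.32 ± 0.07), the methyltransferase that sustains HOX expression, and RBBP5 (-0.32 ± 0.05) among the lower. KMT2A was not called when its probe sets were averaged. With doxycycline in the BMI1-shRNA line 1 was called, DPY30 at 0.10 ± 0.03, where 5.83% of all probe sets tested were called in either direction. DPY30 lost the call without any of 11 single arrays (limma adjusted p up to 0.0983).

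Of 19 PRC1 genes tested, 3 were higher and 2 lower with doxycycline in the BMI1-shRNA line, BMI1 being one of the lower, where 5.83% of all probe sets tested were called in either direction. SCML1, a Polycomb protein related to fly Scm, differed by 0.65 ± 0.06 and CBX6, a chromobox protein, by 0.21 ± 0.05, while PCGF3, a BMI1 paralogue of variant PRC1, differed by -0.51 ± 0.10. Of 12 PRC2 genes, JARID2 (0.22 ± 0.04), an accessory subunit, was higher, and RBBP4 (-0.14 ± 0.03) and SUZ12 (-0.13 ± 0.04), core subunits, were lower. When a gene's probe sets were averaged, CBX6, PCGF3, JARID2 and RBBP4 were not called and SUZ12 turned to 0.20. SUZ12 also lost the call without any of 7 single arrays (limma adjusted p up to 0.0764). In the dosed line comparison, with 20.2% of all probe sets tested higher and 17.9% lower, 8 PRC1 genes were higher and 4 lower, with PCGF2 at 0.44 ± 0.07, PHC1 at 0.40 ± 0.13 and PCGF3 at -0.52 ± 0.10, and 1 PRC2 gene was higher (AEBP2, 0.33 ± 0.04) and 6 lower, among them SUZ12 (-0.31 ± 0.04), JARID2 (-0.23 ± 0.04) and RBBP4 (-0.20 ± 0.03). Averaging probe sets turned RBBP4 to 0.25 and SUZ12 to 0.066 in this comparison, and PCGF3 was then not called.

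Of 9 plasma cell markers tested, 3 were higher and 3 lower in the dosed BMI1-shRNA line, CD38 at 1.23 ± 0.05. With doxycycline in the BMI1-shRNA line 5 of the 9 were higher and 0 lower, where 5.83% of all probe sets tested were called. In the control-shRNA line 1 was higher, where 0.071% were called. Some markers of other cell types also differed between the dosed lines, where 20.2% of all probe sets tested were higher and 17.9% lower. Of 5 epithelial markers tested 3 were higher, and of 4 monocyte markers 1 was higher and 1 lower. None of 3 T cell, 2 erythroid and 3 fibroblast markers tested was called. The 6 epithelial markers summed to 5304 to 6602 in the BMI1-shRNA line and 4024 to 5589 in the control-shRNA line, and 4 of the 6 read above the median on all arrays. CDH1, an adhesion protein of epithelia, differed by 2.99 ± 0.08, KRT18 by 0.33 ± 0.04 and EPCAM by 0.16 ± 0.05 in the dosed comparison. The 7 monocyte markers summed to 57.6 to 117.2 in the BMI1-shRNA line and 88.8 to 139.8 in the control-shRNA line, with S100A9 at -1.80 ± 0.18, CSF1R at 0.48 ± 0.17 (not called without any of 3 single arrays, with a limma adjusted p of up to 0.0595) and CD14 below the median on at least 21 arrays. Their part in the HOXB differences was not tested.

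Patterns most like those of the HOXB genes were read from Pearson's r over the 14 group means, which share the arrays and the line difference. Nearest to HOXB7 (216973_s_at) were XK at 0.998, G0S2 at 0.997 and SRPX, RIN2 and HLA-DRA at 0.996, and 1113 of 28472 probe sets had an r above 0.95. Nearest to HOXB6 were SOX13, SYPL1 and CST3 at 0.993 and TLE1 and TIMP4 at 0.992, with 834 probe sets above 0.95. For HOXB9 the highest r was 0.944, for ANKH. With each line's mean removed, the highest r was 0.904 for HOXB7, with SLFN13, 0.941 for HOXB6, with NKD2, and 0.905 for HOXB9, with AHNAK2, and no probe set passed 0.95. HOXB4, HOXB5, HOXB3 and HOXB2 had their nearest patterns at 0.865 (RASGRP2), 0.890 (PROX1), 0.907 (POTEKP) and 0.850 (HCG9). HOXB6 and HOXB7 themselves correlated over arrays at 0.072 within the BMI1-shRNA line and 0.280 within the control-shRNA line (21 arrays each, brightest probe sets). In the same order of lines, HOXB7 216973_s_at gave 0.011 and 0.152 with 204778_x_at of the same gene. The HOXB9 pair gave -0.12 and 0.094, and the HOXB5 pair 0.08 and -0.144. HOXB7 204779_s_at reached 0.39 and 0.351 with 204778_x_at. With 216973_s_at it was similar in the BMI1-shRNA line and 0.129 in the control-shRNA line. Probe sets of one gene thus often correlated weakly too, so these values cannot tell whether HOXB6 and HOXB7 vary together within a line.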

How the data were processed

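The deposited values have the unit intensity: MAS5 signals, 1 array per RNA sample, per the submitters' processing notes, which give no version. The mean signal, trimmed by 2% at each end, was nearly the same on all arrays, as after global scaling. There is no read depth for arrays, and 3 arrays per group limit the precision. Probe sets were named from the platform annotation supplied with the series.

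The 62 control probe sets were left out, and 35235 probe sets at or above the array median on at least 3 of 42 arrays were tested as log2(signal + 5.4), 5.4 being the 25th percentile of all values. The 14 group means were modelled in limma 3.58.1 under R 4.3.3 (eBayes with an intensity trend, 28 residual degrees of freedom), two-sided, with Benjamini-Hochberg adjustment at 0.05. Code was tested on simulated data. Lines were compared with doxycycline, doxycycline was compared within each line and between lines, and 48 h with 0 h in each line. The undosed line difference was fitted in the same model. No p-value or call of it is given for the HOXB genes, because they were chosen for it, and only the share called over all probe sets is printed.

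Each gene's brightest probe set leads. Values by array are given where it was above background in at least 1 group. From other gene lists up to 4 called genes with the largest log2 difference are named, and the 5 most like patterns were computed. The genes and lists were chosen with earlier results of these data known. Alternatives tried were other pseudocounts, filters, probe set summaries, quantile normalization, no trend, only the groups compared, a replicate block, the 24 and 32 h mean, probe sets without shared probes, and leaving out arrays. No promoter or protein sequence of these genes is used here.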

Additional observations from a re-analysis of the deposited data

Results flagged for a closer look

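Among the genes of the lists examined, the doxycycline effect of 4 differed between the lines by the interaction term in limma, as the mean of 24, 32 and 48 h, where 2.53% of all probe sets tested did. Called were 1 higher and 1 lower of 19 PRC1 genes tested, 1 of 12 PRC2 genes and 1 of 9 plasma cell markers. No gene of the other lists was called, and the 4 were not set against the share over all listed genes together. BMI1, the target of the hairpin, had an interaction value of -2.47 on the log2 scale (adjusted p = 3.94e-23). SCML1 had an interaction value of 0.698 (adjusted p = 8.87e-08). JARID2 had an interaction value of 0.363 (adjusted p = 9.73e-05), which was 0.17 with an adjusted p of 0.309 when its probe sets were averaged. CD38, a plasma cell surface enzyme, had an interaction value of 0.26 (adjusted p = 0.0417), a call lost without any of 24 single arrays (adjusted p up to 0.0837), with no filter on dim probe sets or no intensity trend, and in the mean of 24 and 32 h (adjusted p = 0.338). No HOXB gene met this criterion.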

How the results depend on the processing

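The count of HOXB genes called higher in the dosed BMI1-shRNA line was 3 (HOXB7, HOXB6, HOXB9). It was 1 with a filter at the 75th percentile, which retains HOXB7 alone, and 1 with probe sets not named _s_at or _x_at, which leaves HOXB9 (chosen after seeing the data). Leaving out single arrays gave 3 to 4. The count of 1 gene lower at 48 h than at 0 h in the control-shRNA line became 0 with probe sets averaged by gene, no filter on dim probe sets, no intensity trend, only the groups compared, the median as pseudocount, without the BMI1-shRNA 0 h arrays, or with the replicate number as a block (adjusted p = 0.0508), and 0 to 1 without single arrays; over these and the 4 settings that kept the call, its adjusted p ran from 0.0283 to 0.432. The undosed HOXB7 difference of 2.52 was 2.20 with the mean of probe sets and 2.17 with the median as pseudocount. At the 75th percentile 1 gene, not 7, was above background in any group. Doxycycline gave 0 HOXB genes in either line, and in their difference, in every setting run. With probe sets averaged by gene, 4 called values turned sign: RBBP4 to 0.25 and SUZ12 to 0.066 in the dosed line comparison, SUZ12 to 0.20 under doxycycline in the BMI1-shRNA line, and the plasma cell marker PRDM1 to -0.024 under doxycycline in the control-shRNA line; the cause was not tested. HOXB values that were not called changed sign in 16 of 557 values over the settings and in 106 of 1008 values when single arrays were left out. Some settings, such as no intensity trend, cannot change an estimate, so the first count understates how unsettled these signs are. Replicate numbers showed no pairing on average (mean r across probe sets of 0.00098 between arrays of the same number and -0.00049 between others). Single pairs ran from -0.237 to 0.201 for the same number and from -0.195 to 0.273 for others. A mean over all groups cannot exclude pairing within a line and time. The replicate block changed no other HOXB count.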
